A study of Mus musculus with 12 samples.

Results

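The genes described here are 10 members of the TGF-beta pathway: the ligands Tgfb1, Tgfb2 and Tgfb3, the activin subunit gene Inhba, the receptors Tgfbr1 and Tgfbr2, the signal carrier Smad3, and the feedback genes Smad7, Pmepa1 and Skil. A gene was taken from rows of the expression table that carry a single gene symbol, and all 10 were found among 19937 genes, each with 1 probe set. The samples were 12 RNA extracts of stable lines of 4T1, a mouse mammary epithelial carcinoma line of BALB/cfC3H background, hybridised to Affymetrix Mouse Gene 1.0 ST arrays with 3 arrays per line. The lines were ΔSAP, mutB1, FL and control, the first 3 named for constructs of Mkl1 (now Mrtfa), which encodes a coactivator of serum response factor that responds to the state of actin. The name FL is taken to mean the full-length protein, ΔSAP the protein without its SAP domain, a putative DNA-binding motif, and mutB1 the protein with an altered B1 region, which is known for contact with serum response factor. All 4 lines, control included, were kept in DMEM with 0.03% FCS for 48 h, so every value is a low-serum value. The labels give a single line per construct and do not say what the control line carries, which promoter drives the constructs, or whether a line is a clone. A difference between constructs therefore cannot be told apart from a difference between lines, and p-values measure the spread between arrays of the same line.

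TGF-beta ligands are secreted in a latent form bound to their own propeptide, and must be released before they bind the type II receptor Tgfbr2, which recruits and phosphorylates the type I receptor Tgfbr1. The activated receptors phosphorylate Smad2 and Smad3, which enter the nucleus with Smad4 and regulate transcription. Activin A, a dimer of the Inhba product, uses other receptors but the same Smads. Among the genes that Smads induce are inhibitors of the pathway itself, including Smad7, Pmepa1 and Skil. In mammary epithelium the pathway is known for restraining growth in normal cells and for promoting invasion and mesenchymal traits in carcinoma cells.

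The promoter windows of 3 members are printed here: Tgfb2, Tgfbr2 and Inhba. Tgfb2 was the TGF-beta ligand with the widest range between the lines. Tgfbr2 was lower than control in ΔSAP and higher in mutB1, the latter a weak call lost under 12 of 19 alternative settings. Inhba was higher than control in all 3 construct lines. Each window runs from 250 bases before to 50 bases after a RefSeq transcript start of build GRCm38.p6, 5′ to 3′ on the gene's strand, with every CAGAC (or GTCTG on the given strand) in capitals. CAGAC is the core of the sequence that Smad3 and Smad4 are known to bind.
Tgfb2, minus strand, chr1:186705940-186706239: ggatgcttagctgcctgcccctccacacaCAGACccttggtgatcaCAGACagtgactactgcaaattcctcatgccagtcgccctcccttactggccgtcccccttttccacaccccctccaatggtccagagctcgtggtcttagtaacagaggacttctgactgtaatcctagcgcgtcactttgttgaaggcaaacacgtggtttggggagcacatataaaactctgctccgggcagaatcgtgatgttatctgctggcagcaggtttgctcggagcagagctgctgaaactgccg
Tgfbr2, minus strand, chr9:116175314-116175613: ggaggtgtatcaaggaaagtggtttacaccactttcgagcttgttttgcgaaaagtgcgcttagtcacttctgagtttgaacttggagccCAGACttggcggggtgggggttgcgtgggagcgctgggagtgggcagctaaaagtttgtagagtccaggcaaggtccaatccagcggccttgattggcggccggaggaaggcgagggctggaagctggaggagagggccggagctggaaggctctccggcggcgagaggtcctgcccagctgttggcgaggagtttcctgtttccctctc
Inhba, plus strand, chr13:16011601-16011900: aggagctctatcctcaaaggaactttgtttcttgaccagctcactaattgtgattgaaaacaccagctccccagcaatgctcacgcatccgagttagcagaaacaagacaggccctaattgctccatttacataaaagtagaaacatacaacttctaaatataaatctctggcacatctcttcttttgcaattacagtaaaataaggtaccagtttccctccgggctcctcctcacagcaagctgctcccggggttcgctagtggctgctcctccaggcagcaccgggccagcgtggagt
The Tgfb2 window held 2 copies of CAGAC, the Tgfbr2 window 1 and the Inhba window 0. Such a match is common, since 49.6% of the 32851 windows in the RefSeq table held at least 1 copy on either strand. Member windows on 1 chromosome were left out, and the 7 windows kept here belong to 6 of the 10 members. A member without a window here may therefore have one in the RefSeq table. Among the other windows kept, a second start of Tgfbr1 held 1 copy. The AP-1 motif TGANTCA, which was in 7.81% of all windows, and the CArG box bound by serum response factor, which was in 1.63%, were searched on both strands and matched none of the 7 windows. The motifs do not overlap in the windows shown, and a match or its absence describes only these letters.

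Over all probe sets, Pearson's r was 0.995 to 0.997 for 2 arrays of a line and 0.988 to 0.995 for arrays from separate lines. The Mkl1 probe set read higher in the 3 construct lines, at 11.92 in ΔSAP, 11.29 in mutB1 and 12.08 in FL, against 9.27 in control (log2 line means, 3 arrays each). RNA from the constructs and the cells' own Mkl1 RNA were not told apart. Mkl1 RNA was lower in mutB1 than in FL by a log2 difference of -0.79 (limma adjusted p = 2.79e-06), and the part of this gap in the mutB1 values below was not tested. Krt8, a keratin of simple epithelia, stood between 12.93 and 13.20 in every line, and all 5 endothelial markers stood under 6.35, the lowest array median, in every line. Of the 10 epithelial markers, 8 were higher and 0 lower in ΔSAP than in FL, and 1 was higher and 6 lower in mutB1 than in FL. Of all 34760 probe sets, 5.7% were higher and 5.73% lower in ΔSAP than in FL, and 9% were higher and 8.82% lower in mutB1 than in FL. The mean log2 level of the 10 lay between 10.52 and 10.55 across the ΔSAP arrays, 8.45 and 8.46 across mutB1, 9.63 and 9.66 across FL, and 9.54 and 9.59 across control. Of 7 fibroblast markers 1 was higher and 1 lower in ΔSAP than in FL. In mutB1 against FL 1 was higher and 0 lower, and counts this small cannot be set against the shares of all probe sets. The higher one was Pdgfra in both, with line means of 9.74 in ΔSAP, 10.87 in mutB1 and 9.38 in FL, against 10.76 in control (limma log2 difference of mutB1 from FL 1.49, adjusted p = 6.13e-08). The fibroblast list's mean lay between 6.18 and 6.23 in ΔSAP, 6.40 and 6.46 in mutB1, 6.23 and 6.29 in FL, and 6.40 and 6.44 in control. Of 5 leukocyte markers 0 passed in ΔSAP against FL, and in mutB1 against FL Cd68 alone passed, as 2.08-fold lower (limma adjusted p = 2.63e-05). Its line means were 9.33 in ΔSAP, 8.53 in mutB1 and 9.58 in FL, against 8.91 in control, and the list's mean lay between 5.71 and 5.94 over all arrays. Pdgfra and Cd68 are named after their values were seen. The part of these marker differences in the results below was not tested. Fewer cells that express a gene and less RNA per cell cannot be told apart in bulk RNA.

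Every member differed somewhere among the 4 lines. All 10 passed limma's F test over the lines at an adjusted p of at most 0.01, the threshold used throughout, which 27.7% of all 34760 probe sets passed. In mutB1 against FL all 10 members were higher and 0 lower, where 17.8% of all probe sets passed, 9% as higher and 8.82% as lower. In ΔSAP against FL 4 members were higher (Inhba, Pmepa1, Smad3 and Tgfbr1), 1 was lower (Tgfbr2) and 5 did not pass, where 11.4% of all probe sets passed, 5.7% as higher and 5.73% as lower. That count of 5 called members was 3 when FL replicate 1 or 2 or ΔSAP replicate 1 or 2 was left out. The median log2 difference of the members was 0.45 in mutB1 against FL, beside 0.00 for all probe sets, and 0.18 in ΔSAP against FL, beside -0.03. The members are brighter than most probe sets, and among the 19255 probe sets with a mean of at least 6 the share that passed was 29.9% in mutB1 against FL and 19.8% in ΔSAP against FL. The differences were small: none of the 10 reached the minimum fold of 2 of the study design in either comparison with FL, which 1.6% of all probe sets did in mutB1 against FL and 0.503% in ΔSAP against FL. Both comparisons share the FL arrays.

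**Figure D1:**
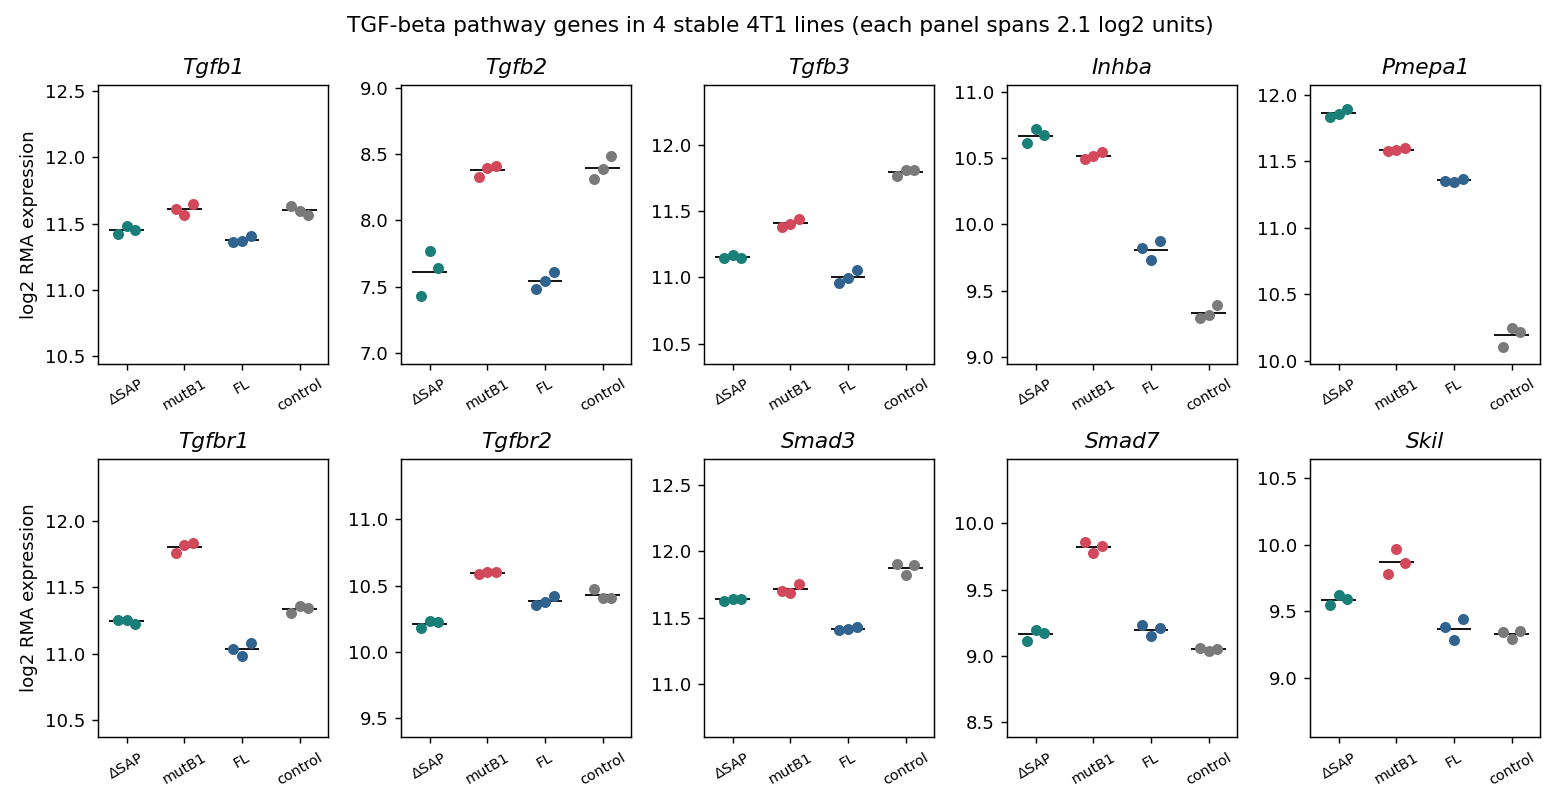
Log2 RMA expression of the 10 members in the ΔSAP, mutB1, FL and control lines, with a point per array and a bar at the mean of 3 arrays. Every panel spans the same log2 range, and levels should not be compared between panels. Inhba and Pmepa1 step down in the order ΔSAP, mutB1, FL and control. For Tgfbr1, Tgfbr2, Smad7 and Skil the mutB1 arrays lie above those of all other lines.

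The 3 TGF-beta ligands were all higher in mutB1 than in FL, and none of them differed between ΔSAP and FL at the threshold. Tgfb2, which encodes a ligand produced in both epithelium and stroma, had log2 values of 7.43, 7.77 and 7.64 in ΔSAP, 8.33, 8.39 and 8.41 in mutB1, 7.48, 7.55 and 7.61 in FL, and 8.31, 8.39 and 8.49 in control. The mutB1 and control arrays all lay above the ΔSAP and FL arrays, while mutB1 overlapped with control and ΔSAP with FL. Tgfb2 was 1.78-fold higher in mutB1 than in FL (limma log2 difference 0.83 ± 0.08, SE, adjusted p = 2.83e-05). It was 1.7-fold lower in ΔSAP than in mutB1 (-0.76 ± 0.08, adjusted p = 6.13e-05). Between mutB1 and control the difference was -0.02 with a 95% interval of -0.20 to 0.16, and between ΔSAP and FL it was 0.07 with an interval of -0.11 to 0.25.

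Tgfb3, the ligand known for its part in mammary involution and palate closure, showed a different order. Its log2 values were 11.15, 11.17 and 11.14 in ΔSAP, 11.38, 11.40 and 11.44 in mutB1, 10.96, 11.00 and 11.05 in FL, and 11.76, 11.81 and 11.81 in control. The 4 lines did not overlap, with control highest and FL lowest. Tgfb3 was 1.32-fold higher in mutB1 than in FL (limma log2 difference 0.40 ± 0.04, SE, adjusted p = 1.88e-05). The ΔSAP line stood 0.15 above FL, which did not pass (adjusted p = 0.0169), although it did with a trended prior, with a further quantile normalization or over probe sets with a mean of at least 6 (adjusted p between 0.002 and 0.00764).

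Tgfb1, the most studied ligand of the family, varied least of the 10 members. Its log2 values were 11.42, 11.48 and 11.45 in ΔSAP, 11.61, 11.57 and 11.65 in mutB1, 11.36, 11.37 and 11.41 in FL, and 11.63, 11.60 and 11.57 in control. The mutB1 and control arrays overlapped and lay above the other 2 lines. The difference of mutB1 from FL was 0.23 ± 0.04 (SE, limma adjusted p = 0.000896), a fold of 1.17. The difference of ΔSAP from mutB1 was -0.16 (adjusted p = 0.0107), which did not pass, although it did under the same 3 settings as Tgfb3 (adjusted p between 0.0011 and 0.00924).

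Inhba, which encodes the subunit of activin A, was 1.81-fold higher in ΔSAP than in FL and 1.63-fold higher in mutB1 than in FL. Its log2 values were 10.61, 10.72 and 10.67 in ΔSAP, 10.49, 10.52 and 10.54 in mutB1, 9.82, 9.74 and 9.88 in FL, and 9.30, 9.31 and 9.39 in control. No line overlapped another. The differences from FL were 0.86 ± 0.05 for ΔSAP (SE, limma adjusted p = 2.12e-06) and 0.71 ± 0.05 for mutB1 (adjusted p = 1.97e-06). The ΔSAP arrays lay above the mutB1 arrays by 0.15, a gap that did not pass (adjusted p = 0.0446).

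Both receptor genes were lower in ΔSAP than in mutB1. Tgfbr1, the type I receptor kinase, had log2 values of 11.25, 11.25 and 11.22 in ΔSAP, 11.76, 11.82 and 11.83 in mutB1, 11.04, 10.99 and 11.08 in FL, and 11.31, 11.36 and 11.35 in control. The 3 mutB1 arrays lay above all the others and the 3 FL arrays below all the others. Tgfbr1 was 1.7-fold higher in mutB1 than in FL (limma log2 difference 0.77 ± 0.04, SE, adjusted p = 2.44e-07) and 1.16-fold higher in ΔSAP than in FL (0.21 ± 0.04, adjusted p = 0.00335). The ΔSAP call was lost without FL replicate 1 or 2 or ΔSAP replicate 1 or 2 (adjusted p between 0.0135 and 0.0163).

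Tgfbr2, the type II receptor that binds ligand first, had log2 values of 10.18, 10.24 and 10.23 in ΔSAP, 10.59, 10.60 and 10.60 in mutB1, 10.35, 10.37 and 10.42 in FL, and 10.48, 10.41 and 10.41 in control. The mutB1 arrays were highest and the ΔSAP arrays lowest, while FL and control overlapped. Tgfbr2 was 0.22 higher in mutB1 than in FL (limma adjusted p = 0.00104) and differed by -0.38 between ΔSAP and mutB1 (adjusted p = 2.39e-05). In ΔSAP it was lower than in FL by a difference of -0.17 (adjusted p = 0.00765). That last call was weak, since it was lost under 14 of 19 alternatives, among them 11 of the 12 fits that left out an array (highest adjusted p = 0.0302) and median centring (adjusted p = 0.109). The single fit without an array that kept it left out control replicate 1.

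Smad3, the transcription factor that the receptors phosphorylate, had log2 values of 11.63, 11.64 and 11.64 in ΔSAP, 11.70, 11.68 and 11.76 in mutB1, 11.41, 11.42 and 11.43 in FL, and 11.91, 11.83 and 11.90 in control. The order was control, mutB1, ΔSAP and FL, and no line overlapped another. The differences from FL were 0.22 ± 0.04 for ΔSAP (SE, limma adjusted p = 0.00162) and 0.30 ± 0.04 for mutB1 (adjusted p = 0.000136). Between ΔSAP and mutB1 Smad3 differed by -0.08 (adjusted p = 0.167).

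All 3 feedback genes were higher in mutB1 than in FL and than in control, whereas in ΔSAP against FL Pmepa1 alone passed. Smad7, which blocks the type I receptor and recruits ubiquitin ligases to it, stood apart in mutB1, with log2 values of 9.11, 9.20 and 9.18 in ΔSAP, 9.86, 9.78 and 9.83 in mutB1, 9.23, 9.15 and 9.21 in FL, and 9.06, 9.04 and 9.05 in control. The mutB1 arrays lay above all 9 others, and ΔSAP and FL overlapped. Smad7 was 1.54-fold higher in mutB1 than in FL (limma log2 difference 0.62 ± 0.04, SE, adjusted p = 1.12e-06). It was 1.58-fold lower in ΔSAP than in mutB1 (-0.66 ± 0.04, adjusted p = 8.62e-07). The ΔSAP difference from FL was -0.04, with a 95% interval of -0.12 to 0.05.

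Pmepa1, a membrane protein that sequesters receptor-activated Smads, had the widest range of the 10 members, at the 98.8 percentile of all probe sets. Its log2 values were 11.84, 11.86 and 11.90 in ΔSAP, 11.58, 11.58 and 11.60 in mutB1, 11.35, 11.34 and 11.37 in FL, and 10.10, 10.25 and 10.22 in control. The 4 lines formed 4 steps without overlap, and each step between neighbours passed the test. Against FL, Pmepa1 was 1.42-fold higher in ΔSAP (limma log2 difference 0.51 ± 0.04, SE, adjusted p = 2.3e-05) and 1.17-fold higher in mutB1 (0.23 ± 0.04, adjusted p = 0.00194). ΔSAP exceeded mutB1 by 0.28 ± 0.04 (adjusted p = 0.000763), and Pmepa1 was the only member that passed as higher in ΔSAP than in mutB1.

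Skil, which encodes the Smad corepressor SnoN, had log2 values of 9.54, 9.63 and 9.59 in ΔSAP, 9.78, 9.97 and 9.86 in mutB1, 9.38, 9.28 and 9.44 in FL, and 9.34, 9.29 and 9.35 in control. The mutB1 arrays were highest, and FL and control overlapped. Skil was 1.42-fold higher in mutB1 than in FL (limma log2 difference 0.50 ± 0.06, SE, adjusted p = 8.75e-05). In ΔSAP against FL it was 0.22 higher, which did not pass (adjusted p = 0.024), although it did over probe sets with a mean of at least 6 (adjusted p = 0.0098). In ΔSAP it was lower than in mutB1 by a difference of -0.29 (adjusted p = 0.00438), a call lost without mutB1 replicate 2 or 3 or any of the 3 ΔSAP arrays (adjusted p between 0.0101 and 0.0179).

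**Figure D2:**
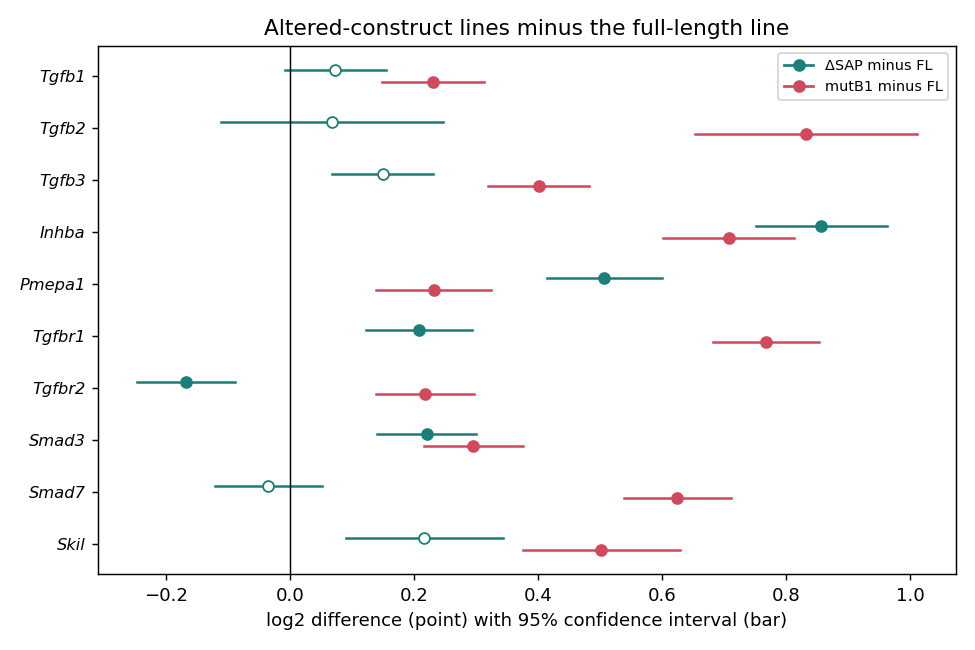
Log2 differences of the ΔSAP and mutB1 lines from FL for the 10 members, each with its 95% confidence interval from limma; filled points passed an adjusted p of 0.01 and open points did not. All mutB1 points lie to the right of 0, from 0.22 for Tgfbr2 to 0.83 for Tgfb2, whereas the ΔSAP points run from -0.17 for Tgfbr2 to 0.86 for Inhba.

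Set directly against each other, ΔSAP and mutB1 differed at 7 members, where 15.1% of all probe sets passed, 7.07% as higher and 8% as lower. Among probe sets with a mean of at least 6 the share that passed was 24.9%. Pmepa1 was higher in ΔSAP, and 6 members were lower: Tgfb2, Tgfb3, Tgfbr1, Tgfbr2, Smad7 and Skil. The median log2 difference of the members was -0.27, beside -0.03 for all probe sets. Tgfb1, Smad3 and Inhba did not pass. Beside these differences, the Mkl1 probe set read 0.63 more in ΔSAP than in mutB1 on the log2 scale (limma adjusted p = 1.73e-05).

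In ΔSAP against control 3 members were higher and 4 lower, where 14.8% of all probe sets passed, 6.96% as higher and 7.83% as lower. In mutB1 against control 6 were higher and 2 lower, where 12.7% passed, 5.83% as higher and 6.89% as lower. In FL against control 2 were higher and 5 lower, where 20% passed, 9.61% as higher and 10.4% as lower. Among probe sets with a mean of at least 6, 25.3% passed in ΔSAP, 22% in mutB1 and 34.3% in FL against control. The median log2 difference of the members was -0.12 in ΔSAP, 0.32 in mutB1 and -0.13 in FL, beside -0.03, -0.00 and -0.01 for all probe sets. These 3 comparisons share the control arrays.

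Against the control line the members did not move one way. Inhba and Pmepa1 rose in all 3 construct lines, Tgfb3 and Smad3 fell in all 3, and the other 6 passed in some lines only. Inhba was 2.52-fold higher in ΔSAP, 2.27-fold higher in mutB1 and 1.39-fold higher in FL than in control, with limma adjusted p between 2.58e-08 and 2.72e-05. Pmepa1 was 3.19-fold higher in ΔSAP, 2.64-fold higher in mutB1 and 2.25-fold higher in FL than in control, with adjusted p between 2.27e-09 and 1.7e-08. These were the only members past the minimum fold of 2 in any comparison, both of them in ΔSAP and mutB1 and Pmepa1 in FL, where 1.34%, 1.21% and 1.83% of all probe sets passed that rule.

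Tgfb3 was 1.56-fold lower in ΔSAP, 1.31-fold lower in mutB1 and 1.73-fold lower in FL than in control, with limma adjusted p between 1.06e-07 and 3.23e-05. Smad3 was 1.18-fold lower in ΔSAP, 1.12-fold lower in mutB1 and 1.38-fold lower in FL than in control. The Smad3 call in mutB1 (log2 difference -0.16, adjusted p = 0.00824) was lost under 14 of 19 alternatives, 11 of them fits without 1 array (highest adjusted p = 0.037). The fit that kept it when an array was left out was that without control replicate 2.

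Tgfb2 was 1.72-fold lower in ΔSAP and 1.8-fold lower in FL than in control (limma adjusted p = 5.38e-05 and 1.86e-05), and in mutB1 it did not pass. Tgfb1 was lower in FL by a log2 difference of -0.22 (adjusted p = 0.00104). In ΔSAP its difference from control was -0.15 (adjusted p = 0.0156), which passed under the same 3 settings (between 0.00179 and 0.0054), and in mutB1 it was 0.01, with a 95% interval of -0.07 to 0.09. All 3 ligand genes were thus below control in FL, and only Tgfb3 passed as below control in mutB1.

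The receptors moved both ways against control. Tgfbr1 was 1.38-fold higher in mutB1 (limma log2 difference 0.47 ± 0.04, SE, adjusted p = 1.15e-05) and 1.23-fold lower in FL (-0.30 ± 0.04, adjusted p = 0.00015), and in ΔSAP it differed by -0.09 (adjusted p = 0.114). Tgfbr2 was lower in ΔSAP by a difference of -0.22 (adjusted p = 0.00127) and higher in mutB1 by 0.17 (adjusted p = 0.00697). The mutB1 call of Tgfbr2 was lost under 12 of 19 alternatives, among them 9 of the 12 fits without 1 array (highest adjusted p = 0.0321). Those 9 left out control replicate 2 or 3, FL replicate 1 or 2, any mutB1 array, or ΔSAP replicate 2 or 3.

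Smad7 was 1.71-fold higher in mutB1 than in control (limma log2 difference 0.77 ± 0.04, SE, adjusted p = 2.64e-07), and it did not pass in ΔSAP (0.11, adjusted p = 0.063) or in FL (0.15, adjusted p = 0.0156). The FL difference passed with a trended prior, a further quantile normalization or the minimum mean of 6 (adjusted p between 0.00457 and 0.00856). Skil was 1.46-fold higher in mutB1 (0.54 ± 0.06, adjusted p = 6.84e-05). Its rise in ΔSAP over control (0.26, adjusted p = 0.00768) was lost under 11 of 19 alternatives, with adjusted p up to 0.0321 when 1 array was left out. The 8 such arrays were the 3 of control, the 3 of ΔSAP, FL replicate 1 and mutB1 replicate 3. In FL Skil differed from control by 0.04, with a 95% interval of -0.08 to 0.17.

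**Figure D3:**
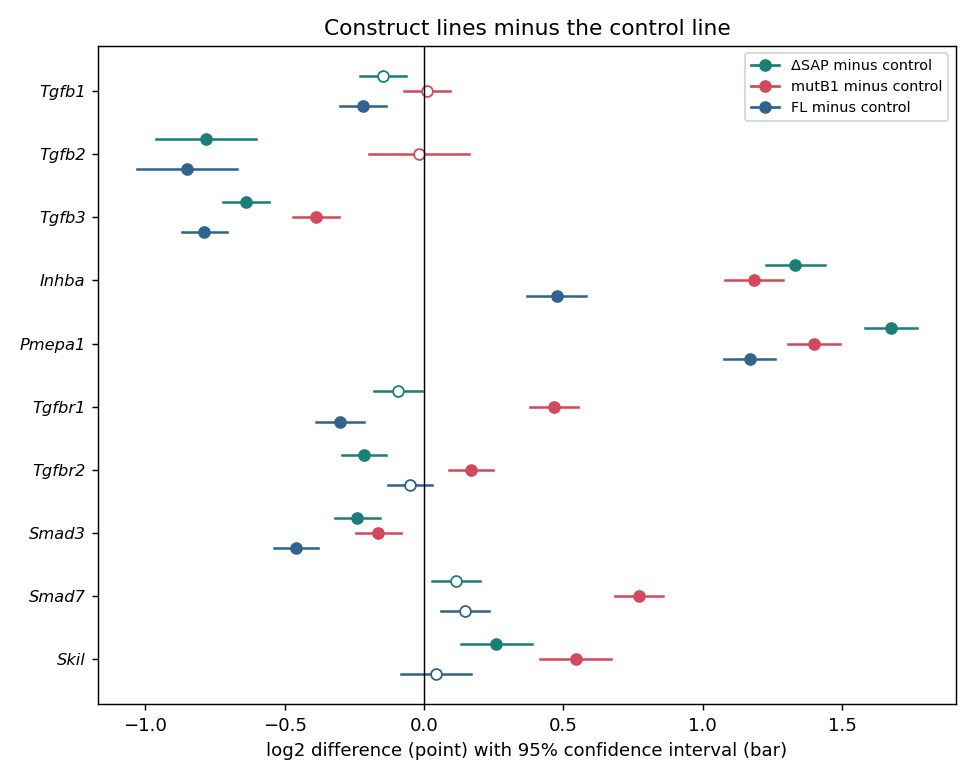
Log2 differences of the ΔSAP, mutB1 and FL lines from control for the 10 members, each with its 95% confidence interval from limma; filled points passed an adjusted p of 0.01. Inhba and Pmepa1 lie to the right of 0 in all 3 lines and Tgfb3 and Smad3 to the left, while Tgfbr1 and Tgfbr2 have lines on both sides.

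The other genes of the pathway were read from lists. Of 14 measured genes of ligand latency and processing, 8 were higher and 0 lower in ΔSAP than in FL, and 9 were higher and 1 lower in mutB1 than in FL. The list's median log2 difference was 0.23 in ΔSAP against FL, beside -0.03 for all probe sets, and 0.26 in mutB1 against FL, beside 0.00. Over all probe sets 5.7% were higher in ΔSAP than in FL and 9% in mutB1 than in FL, and among those with a mean of at least 6 the shares were 9.9% and 15%. Against control the list had 2 higher and 3 lower in ΔSAP and 2 higher and 2 lower in mutB1. In FL against control it had 1 higher and 7 lower. The list's medians in ΔSAP, mutB1 and FL against control were -0.04, 0.00 and -0.20, beside -0.03, -0.00 and -0.01 for all probe sets. In these comparisons 14.8%, 12.7% and 20% of all probe sets passed in either direction. At a mean of at least 6 the shares were 25.3%, 22% and 34.3%. The gene lower in mutB1 than in FL was Itgb6, at 4.43 in mutB1 and 4.77 in FL, levels under the lowest array median that may be background. The latent TGF-beta binding protein Ltbp4, which tethers latent ligand to the matrix, was 1.48-fold higher in ΔSAP and 1.6-fold higher in mutB1 than in FL (limma adjusted p = 4.61e-06 and 3.57e-07). Its relative Ltbp2 was 0.44 higher in ΔSAP and 0.49 higher in mutB1 on the log2 scale, and the integrin subunit Itgb5 was 0.36 higher in each (adjusted p between 8.88e-05 and 0.000559). Itgb8, a subunit of an integrin that activates latent TGF-beta, was 0.85 higher in ΔSAP, at 6.42 against 5.58 in FL (adjusted p = 3.6e-05), a FL level under the lowest array median, where the signal may be background. Lrrc32, which holds latent TGF-beta at the cell surface, was 1.87-fold higher in mutB1 than in FL (adjusted p = 2.59e-05). Its line means were 6.97 in ΔSAP, 7.54 in mutB1 and 6.63 in FL, against 9.01 in control.

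The activin and inhibin branch had 1 of 12 measured genes higher and 1 lower in ΔSAP than in FL, and 2 higher and 1 lower in mutB1 than in FL, with medians of -0.08 and 0.09, beside -0.03 and 0.00 for all probe sets. These counts lie near the background, since 11.4% of all probe sets passed in ΔSAP against FL and 17.8% in mutB1 against FL, or 19.8% and 29.9% of those with a mean of at least 6. Fstl3, a secreted protein that binds and neutralises activin, was 4.54-fold lower in mutB1 than in FL (limma log2 difference -2.18 ± 0.05, SE, adjusted p = 1.83e-09) and 1.41-fold lower in ΔSAP (-0.50 ± 0.05, adjusted p = 0.00012). Its line means were 9.54 in ΔSAP, 7.85 in mutB1 and 10.04 in FL, against 9.38 in control. Acvr2a, a type II activin receptor, was 0.50 higher in mutB1 than in FL (adjusted p = 7.42e-05), and the ligand Gdf11 was 0.40 higher (adjusted p = 5.44e-05). In ΔSAP against FL the type I activin receptor Acvr1b was 0.22 higher (adjusted p = 0.00668).

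Of 11 genes for co-receptors, Smads and their partners, 1 was higher and 3 lower in ΔSAP than in FL, and 2 were higher and 2 lower in mutB1 than in FL, with medians of -0.16 and -0.04, beside -0.03 and 0.00 for all probe sets. The shares of probe sets with a mean of at least 6 that passed were 19.8% in ΔSAP against FL and 29.9% in mutB1 against FL, and over all probe sets 11.4% and 17.8%. The co-receptors Tgfbr3 (betaglycan) and Eng (endoglin) were 0.45 and 0.33 higher in mutB1 than in FL (limma adjusted p = 7.57e-05 and 3.4e-05), whereas in ΔSAP Eng was lower by a difference of -0.16 (adjusted p = 0.00717). Smad4, the common partner of the receptor-activated Smads, was lower in ΔSAP by a difference of -0.19 (adjusted p = 0.00474). The receptor-associated inhibitor Strap was lower in ΔSAP (-0.38) and in mutB1 (-0.30) than in FL, the ubiquitin ligase Trim33 was lower in mutB1 (-0.32), and the acetyltransferase Ep300 was 0.20 higher in ΔSAP.

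Of 13 inhibitors of the pathway, 3 were higher and 2 lower in ΔSAP than in FL, and 4 were higher and 4 lower in mutB1 than in FL, with medians of 0.06 and -0.07, beside -0.03 and 0.00 for all probe sets. Over all probe sets 5.7% were higher and 5.73% lower in ΔSAP than in FL, and 9% higher and 8.82% lower in mutB1 than in FL, with 19.8% and 29.9% passing in either direction at a mean of at least 6. Smad6, the relative of Smad7 that mainly blocks BMP signals, was 1.35-fold higher in ΔSAP and 1.93-fold higher in mutB1 (limma adjusted p = 0.00193 and 5.55e-06). Ski, the relative of Skil, was 1.47-fold higher in mutB1 than in FL (adjusted p = 1e-05), and the corepressor Tgif2 was 0.42 higher (adjusted p = 2.92e-05). The phosphatase Ppm1a was lower in mutB1 (-0.30), the ubiquitin ligase Nedd4l was lower in ΔSAP (-0.30) and mutB1 (-0.27), and Ldlrad4, a relative of Pmepa1, was 0.28 higher in ΔSAP and 0.24 higher in mutB1. Dcn, a matrix proteoglycan that binds TGF-beta, was lower in ΔSAP (-0.49), at 5.88 in ΔSAP and 6.37 in FL. The ΔSAP level lies under 6.35, the lowest array median, and the FL level is close to it, so the signal may be background.

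The 18 measured target genes of TGF-beta had 7 higher and 2 lower in ΔSAP than in FL, and 5 higher and 3 lower in mutB1 than in FL, with medians of -0.01 and 0.03, beside -0.03 and 0.00 for all probe sets. The background shares that passed were 11.4% in ΔSAP against FL and 17.8% in mutB1 against FL, and 19.8% and 29.9% at a mean of at least 6. Sphk1, a sphingosine kinase, went opposite ways, 1.64-fold higher in ΔSAP and 1.56-fold lower in mutB1 than in FL (limma adjusted p = 1.29e-05 and 9.67e-06). Jag1, a Notch ligand, was 2.63-fold lower in mutB1 than in FL (adjusted p = 3.81e-09), while the transglutaminase Tgm2 was 1.75-fold higher (adjusted p = 2.46e-07) and the matricellular gene Ccn2 1.54-fold higher (adjusted p = 5.55e-06). In ΔSAP the AP-1 gene Junb was 0.37 higher than in FL and the matrix gene Tgfbi 0.35 higher (adjusted p = 0.000142 and 0.0017). Postn passed as 0.43 higher in ΔSAP, at levels of 4.58 in ΔSAP and 4.15 in FL that may be background.

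**Figure D4:**
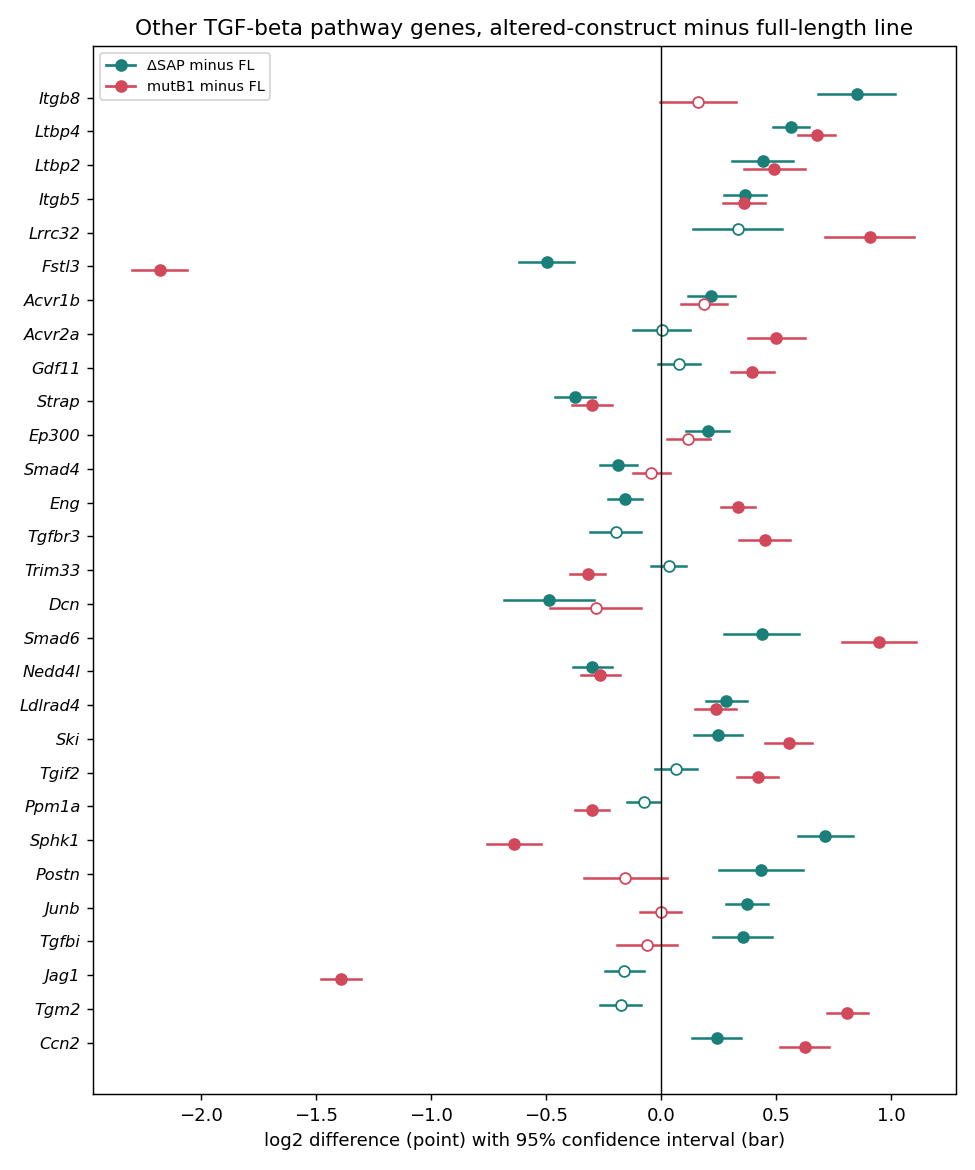
Log2 differences of the ΔSAP and mutB1 lines from FL for the named genes of the latency, activin, co-receptor, inhibitor and target lists, each with its 95% confidence interval from limma; filled points passed an adjusted p of 0.01. Ltbp4, Ltbp2 and Itgb5 lie to the right of 0 in both lines, Fstl3 reaches -2.18 in mutB1, and Sphk1 and Eng have a line on either side of 0.

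The 3 members with the widest range of line means were set against 12190 other genes with a mean of at least 6, by Pearson's r over the 12 arrays. The arrays fall into 4 lines, so these values mostly reflect the gaps between 4 line means and carry no p. The order of the lines need not be the same. Pmepa1 was most like Id3, an inhibitor of helix-loop-helix factors (r = 0.989), followed by the mitochondrial calcium channel gene Mcu (0.977) and Tbc1d1 (0.974). Id3 had line means of 9.50 in ΔSAP, 9.30 in mutB1 and 9.02 in FL, against 8.35 in control. Inhba was most like the centriole gene Stil (0.986), Inava (0.982) and the Mediator subunit gene Med14 (0.982). Tgfb2 was most like the cofilin phosphatase gene Ssh2 (0.987), Ramp1 (0.987) and the collagen gene Col6a1 (0.986). Like Tgfb2, these genes had higher line means in mutB1 and control than in ΔSAP and FL, which follows from their choice by r.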

How the data were processed

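Expression was measured on 12 arrays, 3 for each of 4 stable 4T1 lines, from 100 ng of total RNA each, per the labels' protocols. The authors deposited log2 values, 1 per probe set and array, computed by RMA in the affy package of Bioconductor 2.4, per the series design text, and R 2.10.0, per the submitters' processing notes. No source used here gives the probe set definition, the scan dates or a genome build. RMA makes no detection call, so a dim value may be background, and 3 arrays per line limit the precision.

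Of 34760 probe sets, the platform annotation gave 21640 a single symbol, 1321 several and 11799 none. Symbols were updated by Entrez ID with RefSeq names (GRCm38.p6), which matched 21553. The brightest probe set stands for a gene, and genes without a single-symbol probe set were not analysed here. All arrays entered 1 linear model of 4 line means (limma 3.58.1, R 4.3.3, eBayes). P-values were adjusted by Benjamini-Hochberg over all probe sets, and a difference was called at an adjusted p of at most 0.01. Each difference is the first-named line minus the second. The fit was tested on simulated data. The members and lists were chosen with earlier results of these data known. All members are named, and from each list at most the 4 largest called differences per comparison with FL. For the 3 members of widest range the 3 genes most like each in Pearson's r are named. Alternatives were a replicate block, leaving out arrays, fits of 2 lines, other normalizations and filters, and the study's fold rule. Promoter sequences are RefSeq's.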

Additional observations from a re-analysis of the deposited data

Results flagged for a closer look

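Among the 10 members, 2 receptor genes passed in opposite directions against control in different construct lines, and the lines also differed directly. Tgfbr1 was 0.47 higher than control in mutB1 and differed by -0.30 from control in FL, and the direct log2 difference of mutB1 from FL was 0.77 (limma adjusted p = 2.44e-07). Tgfbr2 differed by -0.22 from control in ΔSAP and by 0.17 in mutB1, and the direct difference of ΔSAP from mutB1 was -0.38 (limma adjusted p = 2.39e-05). The lines share the control arrays, and the mutB1 value of Tgfbr2 against control lost its call when any of 9 arrays was left out. With 3 arrays per line, single arrays were not tested as outliers.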

How the results depend on the processing

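Each of the 60 member differences was recomputed under 19 alternatives, and 39 kept their sign and their side of the threshold throughout, 12 lost a call and 5 gained a call under at least 1 of them. With the study's minimum fold of 2 the counts of members called became 0 in ΔSAP against FL, 0 in mutB1 against FL, 0 in ΔSAP against mutB1, 1 in FL against control, 2 in ΔSAP against control and 2 in mutB1 against control. With only the 2 lines compared in the fit, which leaves fewer arrays to estimate the spread, 2 members were called in ΔSAP against FL in place of 5, 8 in mutB1 against FL in place of 10, 6 in FL against control in place of 7, 4 in ΔSAP against control in place of 7, 6 in mutB1 against control in place of 8, and 6 in ΔSAP against mutB1 in place of 7. Those fits alone ended the calls of Smad3 in ΔSAP against FL (adjusted p = 0.0156) and control (0.0136), Tgfb1 in FL against control (0.0103) and mutB1 against FL (0.0121), and Tgfbr2 in mutB1 against FL (0.0113) and ΔSAP against control (0.0198). Leaving out each array in turn gave 3 to 5 called members in ΔSAP against FL, with 3 without FL replicate 1 or 2 or ΔSAP replicate 1 or 2, and 10 in every such fit of mutB1 against FL. It gave 6 to 7 in ΔSAP against control, 6 to 7 in mutB1 against control, 7 in FL against control and 6 to 7 in ΔSAP against mutB1. Signs turned only for differences that were not called: Skil in FL against control (-0.0083 after median centring), Tgfb1 in mutB1 against control (-0.015 after a further quantile normalization), and 3 that turned when an array was left out. These were Tgfb2 in ΔSAP against FL (-0.0089 to 0.158, negative without ΔSAP replicate 2), Tgfb1 in mutB1 against control (-0.0099 to 0.0315, negative without control or mutB1 replicate 3) and Tgfb2 in mutB1 against control (-0.0608 to 0.0271, positive without control replicate 3 or mutB1 replicate 1). The cause was not tested. Deviations from the line means had correlations of -0.23 to 0.18 for same-numbered arrays of different lines (2 of 18 over 0.1). For differently numbered arrays they were -0.18 to 0.30 (7 of 36 over 0.1). These values did not show a pairing by number, although with 3 arrays per line they could miss one. A shared day or batch was not tested. With the replicate number as a block, 4 members were called in ΔSAP against FL, 10 in mutB1 against FL, 7 in FL against control and 6 in each of the other comparisons. An array signal near the lowest array median limits the dim genes.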
